A study of Mus musculus with 16 samples.

Results

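The 32 genes described here encode the vacuolar H+-ATPase (V-ATPase), the rotary pump that acidifies organelles and secretes acid, together with proteins that help to build and regulate it. They were chosen by gene symbol, as a list of pump subunits, accessory proteins and assembly factors, and all 32 were found among the 28971 genes of the count table. Of these, 31 had counts high enough to be tested. Rnasek, at 4 to 14 reads a library, did not.

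RNA was sequenced from whole mouse kidneys with 150 bp paired reads. Mice labelled Hes1 cKO (conditional knockout) carried Pax8-rtTA, TRE-Cre and floxed alleles of Hes1, which encodes a transcriptional repressor downstream of Notch receptors, and the controls were wild type littermates. The Hes1 cKO libraries are also called mutants below. Pax8 is active in tubule epithelium, so this Cre acts in the tubules when doxycycline is present, and vascular and stromal cells are not its target. Every mouse, control or Hes1 cKO, drank doxycycline (1 mg/mL, with 5% sucrose) for 1 week from 3 weeks of age. The columns used comprise 3 Hes1 cKO and 4 control libraries, numbered below only to tell them apart, and nothing in their names ties a column to one titled animal. P-values therefore measure the spread between these libraries, which may be technical.

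The pump has a cytosolic V1 sector, which hydrolyses ATP, and a V0 sector in the membrane, which moves protons. Most cells use it to acidify lysosomes and endosomes. Intercalated cells of the kidney collecting duct also place it in the plasma membrane, where it secretes acid (type A cells) or returns it to the blood (type B cells), and for this they build it with their own isoforms of the B, C, G, a and d subunits. Mutations of the B1 and a4 isoforms cause distal renal tubular acidosis in people.

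Total counts were 16973931 to 20420422 a library. Levels are CPM, each gene's count relative to the TMM-scaled total of its library, and differences are log2 fold changes of Hes1 cKO against control with their standard error (SE). Hes1 measured 19.8, 17.2 and 17.5 CPM in Hes1 cKO 1, 2 and 3. In control 1, 2, 3 and 4 it measured 42.8, 51.0, 67.6 and 60.9 CPM, so every mutant was lower, by a log2 fold change of -1.61 (± 0.16 SE; adjusted p = 0.00357, edgeR). Xist, a marker of female tissue, was high in Hes1 cKO 3, control 3 and control 4 (333 to 367 CPM) and at most 0.371 CPM in the other 4 libraries. Markers of intercalated cells were higher in Hes1 cKO: the 3 type B markers (Slc26a4, Slc4a9, Insrr) summed to 642 to 739 CPM against 159 to 245 CPM, and the 5 type A markers (Slc4a1, Kit, Aqp6, Adgrf5, Slc26a7) to 461 to 481 CPM against 276 to 379.9 CPM. All 3 type B markers and 1 of the 5 type A markers (Kit) were called higher (adjusted p under 0.05, edgeR). Over all tested genes, 0.32% were called higher and 0.0192% lower. Slc4a1 overlapped between the groups, at 120 to 135 CPM in Hes1 cKO and 76.6 to 124 CPM in control. The marker lists were chosen with earlier results of these data known, so these counts are not independent support. All 6 tested principal cell markers lay below 0, 1 of them called lower (Hsd11b2), and the 7 listed summed to 707 to 1122 CPM against 1164 to 1787 CPM. Most of that sum was Aqp2, at 399 to 737 CPM in Hes1 cKO and 682 to 1107 CPM in control. Aqp2, Scnn1b and Scnn1g overlapped between the groups, while Aqp3, Hsd11b2 and Fxyd4 did not. The part of these shifts in the results below was not tested. In whole-kidney RNA, more cells of a type and more RNA per cell cannot be told apart.

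Of the 31 tested members, 4 rose in Hes1 cKO and none fell, by edgeR's quasi-likelihood test with an adjusted p under 0.05 over all genes. Across all 15615 tested genes that test called 0.339%, with 0.32% higher and 0.0192% lower. All 4 were isoforms of intercalated cells: Atp6v1c2, Atp6v0d2, Atp6v1g3 and Atp6v1b1. The fifth such isoform, Atp6v0a4, was not called, nor was any of the 26 tested members outside these isoforms, of which Atp6v0c alone passed an unadjusted p of 0.05. At that unadjusted limit 5 of the 31 members passed, all of them higher, where 5.95% of all genes did (3.34% higher). A log2 fold change above 0 was found in 18 of the 31, and in 48.4% of all genes. By DESeq2 and by limma-voom, too, these 4 members were the ones called. The median log2 fold change was 1.02 over the 5 intercalated-cell isoforms and -0.08 over the 6 ubiquitous isoforms of the same subunits, beside -0.0064 over all genes tested.

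**Figure D1:**
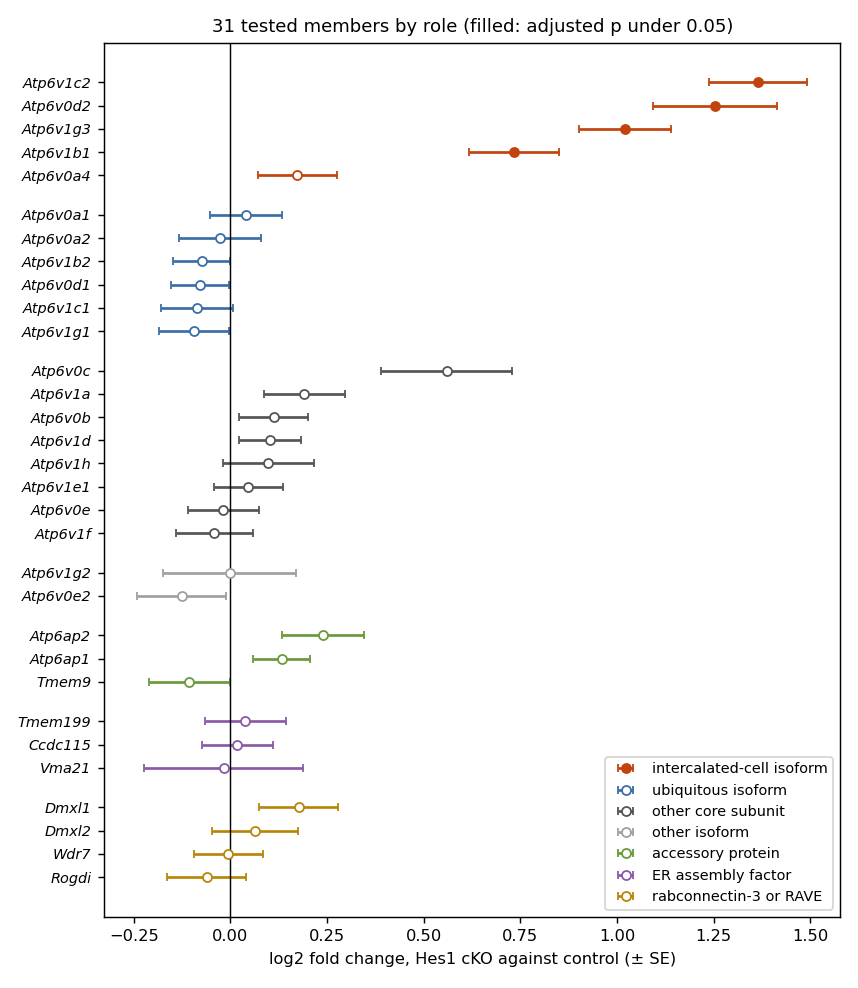
Log2 fold change of Hes1 cKO against control for each of the 31 tested members, grouped and coloured by role, with bars of 1 standard error. The filled points are the 4 called members, between 0.73 and 1.36. The open points, not called, lie between -0.13 and 0.56.

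Promoter sequences are shown for the 4 intercalated-cell isoforms found in the set of RefSeq promoters used (GRCm38.p6). They are shown because 3 of them were called together and Atp6v0a4 was not. Atp6v0d2, which was also called, had no entry in that set and is not shown. Each is the 250 bases before the RefSeq start, 5′ to 3′ on the gene's strand. Capitals mark matches, on either strand, to TAAACA (a core that forkhead factors such as Foxi1 can bind), CACGTG (the E-box core read by TFEB and related factors) and CACGCG or CACNAG (sequences that Hes proteins can bind). No match overlaps another in these 4 windows. The window of Atp6v1c2 precedes an internal start of the gene as GENCODE annotates it.
Atp6v1b1, chr6:83742767-83743016, plus strand: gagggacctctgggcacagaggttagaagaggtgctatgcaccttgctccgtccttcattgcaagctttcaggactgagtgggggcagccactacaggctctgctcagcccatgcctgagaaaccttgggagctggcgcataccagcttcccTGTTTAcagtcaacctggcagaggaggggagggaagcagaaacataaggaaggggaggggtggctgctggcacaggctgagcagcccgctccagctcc
Atp6v1c2, chr12:17324731-17324980, minus strand: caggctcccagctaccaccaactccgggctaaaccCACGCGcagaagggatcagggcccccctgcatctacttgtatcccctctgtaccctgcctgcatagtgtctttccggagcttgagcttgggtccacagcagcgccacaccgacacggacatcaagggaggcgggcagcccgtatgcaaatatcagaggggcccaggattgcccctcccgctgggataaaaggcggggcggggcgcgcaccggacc
Atp6v1g3, chr1:138273488-138273737, plus strand: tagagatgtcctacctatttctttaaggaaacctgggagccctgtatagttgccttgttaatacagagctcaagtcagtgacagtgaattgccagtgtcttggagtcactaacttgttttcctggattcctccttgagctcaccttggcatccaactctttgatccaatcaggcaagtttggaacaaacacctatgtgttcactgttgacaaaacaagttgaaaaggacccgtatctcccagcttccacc
Atp6v0a4, chr6:38124587-38124836, minus strand: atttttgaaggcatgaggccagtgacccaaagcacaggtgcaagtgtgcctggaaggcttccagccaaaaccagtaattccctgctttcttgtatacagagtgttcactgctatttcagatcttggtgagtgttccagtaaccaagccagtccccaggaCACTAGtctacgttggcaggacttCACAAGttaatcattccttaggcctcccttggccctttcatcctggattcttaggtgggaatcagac
TAAACA was found in Atp6v1b1, on the reverse strand, starting 98 bases before the start. Atp6v1c2 held CACGCG, 215 bases before the start. Atp6v0a4 held CACNAG at 91 and 67 bases before it, and Atp6v1g3 held none of the 4. Of all 32851 windows of this length, 12.03% held TAAACA, 6.02% CACGTG, 7.62% CACGCG and 36.7% CACNAG. Counted by gene, with a match in any of its windows, these shares were 13.5%, 6.86%, 8.65% and 40.1% of 27025 genes. Of the 23 members with an entry, counted by gene, TAAACA was in 1, CACGTG in 4 (Atp6v1a, Atp6v0b, Vma21 and Ccdc115), CACGCG in 4 and CACNAG in 11. A match describes these letters only.

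The C subunit clamps the stator of V1 and V0 together and is released when the pump comes apart. Its isoform C2, encoded by Atp6v1c2 (ENSMUSG00000020566, GRCm38 chr12:17284721-17329359, minus strand), was at 65.6, 63.0 and 63.6 CPM in Hes1 cKO 1, 2 and 3. In control 1, 2, 3 and 4 it was at 19.4, 24.1, 29.1 and 26.9 CPM. Every Hes1 cKO library lay above every control library, with the 3 mutant values close to each other. Mean levels were 64.1 CPM (SD 1.38, n = 3) and 24.9 CPM (SD 4.15, n = 4), and the log2 fold change was 1.36 (± 0.13 SE; adjusted p = 0.00316, edgeR), the largest among the members. The ubiquitous C1 isoform, Atp6v1c1, was at 128, 112 and 109.5 CPM in the mutants, beside 135, 128, 115 and 118 CPM in the controls. These ranges overlapped, and the log2 fold change was -0.09 (± 0.09 SE; adjusted p = 0.974, edgeR). The exons of Atp6v1c2 share 50 of 2174 bp with Pdia6 on the opposite strand, and whether the counting used strand is not known.

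The d subunit couples the turning V1 shaft to the ring of V0. Isoform d2, Atp6v0d2 (ENSMUSG00000028238, chr4:19876841-19922605, minus strand), is used in intercalated cells and, outside the kidney, in osteoclasts. It was at 73.6, 81.5 and 77.3 CPM in the mutants, beside 22.1, 37.7, 35.6 and 34.6 CPM in the controls. The groups were apart, and control 1 was the lowest of all. The log2 fold change was 1.25 (± 0.16 SE; adjusted p = 0.0113, edgeR). Leaving out either of Hes1 cKO 1 and Hes1 cKO 2 took Atp6v0d2 past the limit (adjusted p = 0.0533 and 0.0787, edgeR). The ubiquitous d1 isoform, Atp6v0d1, was at 108, 101 and 108 CPM in the mutants, beside 114, 112, 114 and 105 CPM in the controls, with overlapping ranges and a log2 fold change of -0.08 (± 0.08 SE; adjusted p = 0.969, edgeR). Of 5 macrophage and osteoclast markers (Cd68, Adgre1, Csf1r, Acp5, Ctsk), none was called, and their summed level was 86.6 to 96.9 CPM in Hes1 cKO and 81.8 to 109 CPM in control.

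The G subunit forms the peripheral stalk with E. Isoform G3, Atp6v1g3 (ENSMUSG00000026394, chr1:138273738-138289462, plus strand), was at 103, 103 and 107 CPM in the mutants, beside 39.9, 55.2, 56.9 and 54.0 CPM in the controls. The lowest mutant library was well above the highest control, and control 1 was again lowest. The log2 fold change was 1.02 (± 0.12 SE; adjusted p = 0.00652, edgeR). The ubiquitous G1 isoform, Atp6v1g1, was at 202, 186 and 216 CPM in the mutants, beside 217, 212, 233 and 196 CPM in the controls. Its ranges overlapped (log2 fold change -0.09 ± 0.09 SE; adjusted p = 0.971, edgeR). The third isoform, G2 (Atp6v1g2), known from neurons, was low in every library, at 3.73 to 4.76 CPM. Neuronal markers were also low: Snap25, Syt1 and Rbfox3 together summed to no more than 3.59 CPM in any library.

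The B subunit pairs with A in the ring that binds ATP. Isoform B1, Atp6v1b1 (ENSMUSG00000006269, chr6:83742990-83758855, plus strand), was at 220.4, 232 and 230.2 CPM in the mutants, beside 108, 146, 147 and 147 CPM in the controls. The groups did not overlap, and control 1 stood below the other 3 controls. The log2 fold change was 0.73 (± 0.12 SE; adjusted p = 0.0369, edgeR). Atp6v1b1 was no longer called when any library other than control 1 was left out, with adjusted p-values by edgeR of 0.154, 0.209 and 0.127 for mutants 1, 2 and 3, and 0.0856, 0.0733 and 0.0928 for controls 2, 3 and 4. The ubiquitous B2 isoform, Atp6v1b2, was at 345, 354 and 375 CPM in the mutants, beside 376, 376, 373 and 383 CPM in the controls. These overlapped through Hes1 cKO 3, with a log2 fold change of -0.07 (± 0.07 SE; adjusted p = 0.974, edgeR).

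The a subunit holds the channels through which protons enter and leave V0. Isoform a4, Atp6v0a4 (ENSMUSG00000038600, chr6:38048483-38124586, minus strand), was at 419, 532 and 478 CPM in the mutants, beside 438, 452, 407 and 394 CPM in the controls. Hes1 cKO 1 lay among the controls. The log2 fold change was 0.17 (± 0.10 SE; adjusted p = 0.934, edgeR), so the gene was not called. Of its 4973 exon bases, 259 are shared with D630045J12Rik on the same strand. Isoform a4 is also made in the proximal tubule, and the 6 proximal tubule markers (Lrp2, Cubn, Slc34a1, Slc5a2, Slc5a12, Slc22a6) summed to 6918 to 7724 CPM in Hes1 cKO and 7741 to 9928 CPM in control, with none called and a median log2 fold change of -0.19. Their part in the level of Atp6v0a4 was not tested. The ubiquitous Atp6v0a1 was at 85.5, 80.9 and 68.7 CPM in the mutants, beside 81.4, 72.7, 74.7 and 75.9 CPM in the controls (log2 fold change 0.04 ± 0.09 SE). Atp6v0a2, the isoform of the Golgi, was at 106, 97.1 and 93.7 CPM and at 119, 93.7, 92.6 and 97.8 CPM (log2 fold change -0.03 ± 0.11 SE). Neither group of values stood apart from the other, and the sign of both differences turned when certain libraries were left out.

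**Figure D2:**
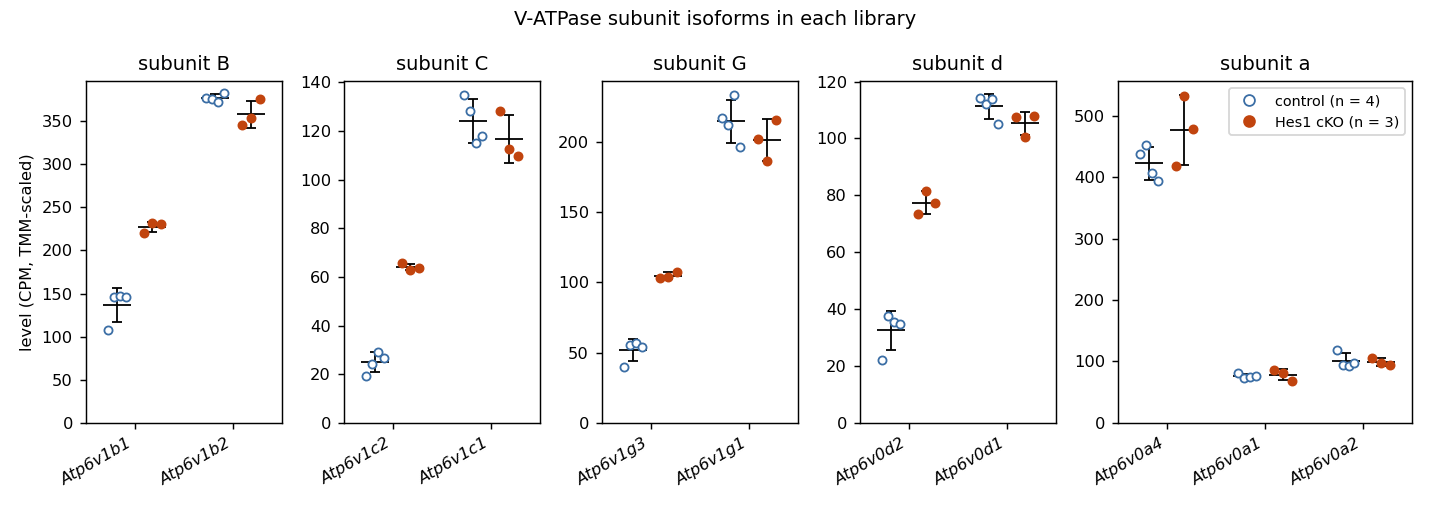
Level in each library (CPM, axis from 0) of the intercalated-cell isoform (left in each panel) and the ubiquitous isoforms of subunits B, C, G, d and a. Open points are the 4 controls, filled points the 3 Hes1 cKO libraries, and bars the mean and SD. The points of Atp6v1b1, Atp6v1c2, Atp6v1g3 and Atp6v0d2 fall into separate groups, while those of Atp6v0a4 and of the ubiquitous isoforms overlap.

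Whether an intercalated-cell isoform changed differently from its ubiquitous counterpart was tested on their log2 ratio in each library (CPM + 1), by a two-sided exact permutation test of the genotype labels. With 3 and 4 libraries the smallest p it can give is 0.0286. Adjusted values are Benjamini-Hochberg over the 6 pairs compared. The Atp6v1c2 to Atp6v1c1 ratio rose by 1.43, from -2.28 ± 0.344 (SD, n = 4) to -0.85 ± 0.0925 (SD, n = 3). The ratio of Atp6v0d2 to Atp6v0d1 rose by 1.33, that of Atp6v1g3 to Atp6v1g1 by 1.11 and that of Atp6v1b1 to Atp6v1b2 by 0.82. In these 4 pairs every Hes1 cKO library lay above every control (exact permutation p = 0.0286 each, adjusted 0.0429). For Atp6v0a4 the ratio differed by 0.13 against Atp6v0a1 (exact permutation p = 0.343) and by 0.19 against Atp6v0a2 (exact permutation p = 0.286, adjusted 0.343 for both), with overlapping libraries. Without Hes1 cKO 1 these values were 0.29 and 0.33 and the libraries of both pairs no longer overlapped. The log2 fold change of Atp6v0a4 itself was 0.26 without Hes1 cKO 1 and 0.086 without Hes1 cKO 2. Atp6v0a4 was called in none of the 14 alternatives run.

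The 5 intercalated-cell isoforms also differed from each other. Of the 10 ratios between them, 8 changed by the same test (exact permutation p = 0.0286 each, adjusted 0.0357 over the 10). That p is the smallest the test can give, and the 10 ratios share 5 genes, so they are not independent. The ratio of Atp6v1c2 to Atp6v0a4 rose by 1.18, that of Atp6v1g3 to Atp6v0a4 by 0.85 and that of Atp6v1b1 to Atp6v0a4 by 0.57, and the ratio of Atp6v0a4 to Atp6v0d2 fell by 1.09. All 4 ratios with Atp6v0a4 thus changed. Atp6v1b1 in turn lost ground against Atp6v1c2 (its ratio fell by 0.60), against Atp6v0d2 (fell by 0.51) and against Atp6v1g3 (fell by 0.28), and the ratio of Atp6v1c2 to Atp6v1g3 rose by 0.32. The ratio of Atp6v1g3 to Atp6v0d2 fell by 0.23 (exact permutation p = 0.0571, adjusted 0.0635), with libraries that did not overlap. The ratio of Atp6v1c2 to Atp6v0d2 was -0.27 ± 0.103 (SD, n = 3) against -0.36 ± 0.189 (SD, n = 4), a difference of 0.09 with overlapping libraries (exact permutation p = 0.543).

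**Figure D3:**
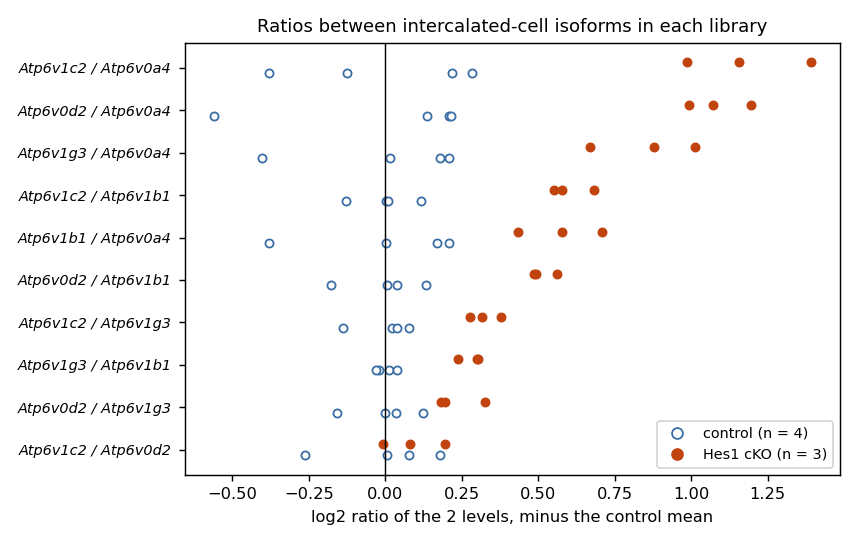
Log2 ratio of the levels of 2 intercalated-cell isoforms in each library, less the mean of the controls, for the 10 pairs. Each pair is written so that its mean is higher in Hes1 cKO, filled points are Hes1 cKO and open points control. The libraries overlap in 1 pair, Atp6v1c2 and Atp6v0d2, and the largest differences are those of Atp6v1c2 and Atp6v0d2 against Atp6v0a4.

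Levels of different genes were compared per kilobase of annotated exon (CPM per kb), with lengths from GENCODE release M21. In controls the highest were Atp6v1g1 at 189 ± 13.4 CPM per kb (SD, n = 4), Atp6v1f at 168 ± 16.7 and Atp6v1a, the catalytic A subunit, at 116 ± 11.7. Within each of the 4 control libraries Atp6v1g1 was above Atp6v1f, by 3.24 to 37.2 CPM per kb. Atp6v0a4 followed at 84.9 ± 5.38 CPM per kb, above Atp6v1b2 at 71.1 ± 0.806. The other intercalated-cell isoforms were lower in controls: Atp6v1b1 at 31.2 ± 4.40, Atp6v1g3 at 27.3 ± 4.16, Atp6v0d2 at 11.96 ± 2.58 and Atp6v1c2 at 11.4 ± 1.91 CPM per kb. Compared within libraries, Atp6v1b1 was above Atp6v1g3 in all 4 controls, by 3.43 to 4.80 CPM per kb. Atp6v0d2 was above Atp6v1c2 in 2 of the 4, with differences from -0.79 to 2.76 CPM per kb, so these neighbours had no fixed order. In Hes1 cKO Atp6v1b1 was at 51.9 ± 1.40, Atp6v1g3 at 55.4 ± 1.23, Atp6v0d2 at 28.5 ± 1.47 and Atp6v1c2 at 29.5 ± 0.636 CPM per kb (SD, n = 3).

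On this scale the intercalated-cell isoform took a larger share of its subunit's RNA, summed over the isoforms among the members, in 4 of the 5 subunits. C2 made up 34.0% ± 5.40 (SD, n = 4) of the C subunit's RNA in control and 58.6% ± 1.57 (SD, n = 3) in Hes1 cKO, so that the more abundant C isoform was C1 in every control and C2 in every Hes1 cKO library. B1 rose from 30.4% ± 3.11 to 43.5% ± 0.820, d2 from 16.1% ± 3.21 to 32.7% ± 1.95 and G3 from 12.5% ± 1.85 to 23.7% ± 1.02. In these 4 the libraries did not overlap (exact permutation p = 0.0286 each, adjusted 0.0357 over the 5 subunits). For B, C and d these shares restate the ratios tested above on another scale, and for G nearly so. They are therefore not separate support. The share of a4 in the sum of a4, a1 and a2 was 76.1% ± 1.71 in control and 78.1% ± 3.11 in Hes1 cKO, with overlapping libraries (exact permutation p = 0.343). With a3 (Tcirg1, not a member) added to the sum, it was 71.6% ± 1.79 and 73.9% ± 3.72, again overlapping (exact permutation p = 0.314). Without Hes1 cKO 1 the share of a4 in the first of these sums was 3.74 percentage points higher in the mutants, with no overlap. By library that share was 74.5%, 80.0% and 79.8% in Hes1 cKO 1, 2 and 3, and 74.5% to 78.4% in control. Shares depend on the lengths used. As bare CPM, with no division by length, C2 went from 16.8% ± 3.31 to 35.5% ± 1.47 and was the less abundant C isoform in both groups.

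**Figure D4:**
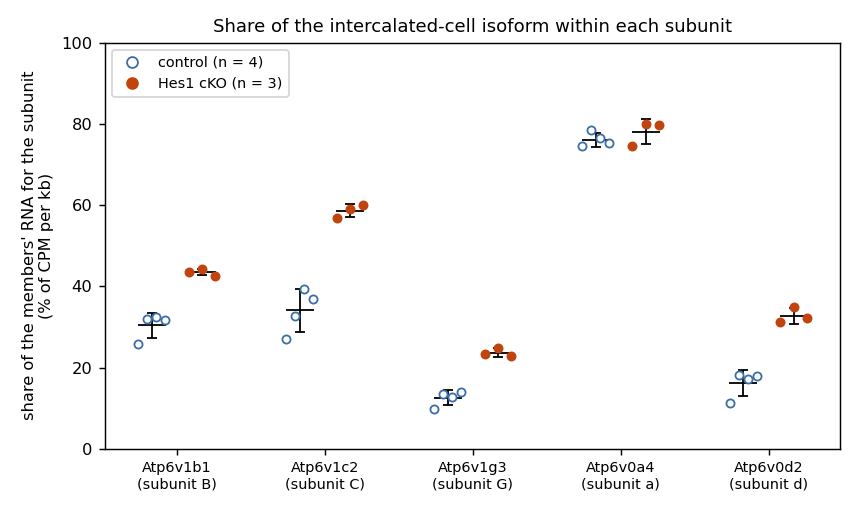
Share of the intercalated-cell isoform in the summed CPM per kb of its subunit's isoforms among the members (for a, without a3), in percent, for each library. Open points are control, filled points Hes1 cKO, and bars the mean and SD. The groups are apart for B1, C2, G3 and d2 and overlap for a4.

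The summed RNA of a subunit's isoforms among the members differed less between the groups than the called isoforms. That follows from adding ubiquitous isoforms that did not rise, so it is not a separate result. For C the sum was 48.8 to 53.1 CPM per kb in the mutants and 33.0 to 34.0 in the controls, without overlap. For d it was 86.1 to 88.6 against 71.3 to 76.6 CPM per kb (1.18 times) and for B 115 to 123 against 95.6 to 106 (1.17 times), again without overlap. The sums for G (220.7 to 248 against 203 to 237 CPM per kb) and for a4, a1 and a2 (113 to 134 against 105 to 118) overlapped between the groups.

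The remaining 8 core subunits have no isoform of their own in intercalated cells. Atp6v0e and Atp6v1e1 have a second isoform elsewhere, Atp6v0e2 and Atp6v1e2, the latter at no more than 0.0495 CPM here. None of the 8 was called by edgeR, 6 lay above 0 and 2 below, and their median log2 fold change was 0.10. The largest was that of Atp6v0c (ENSMUSG00000024121, chr17:24163866-24169702, minus strand), which encodes the proteolipid that makes up most of the rotating ring. It was at 228, 202 and 202 CPM in the mutants, beside 144, 194, 123 and 112 CPM in the controls. The groups did not overlap, but control 2 came close to the mutant libraries. The log2 fold change was 0.56 (± 0.17 SE; unadjusted p = 0.0090, adjusted p = 0.582, edgeR). It was not called under any of the alternatives run; the smallest adjusted p was 0.0535. Atp6v1a, the most counted member, was at 741, 878 and 773 CPM in the mutants, beside 660.2, 804, 665 and 663 CPM in the controls, where control 2 lay among the mutant libraries (log2 fold change 0.19 ± 0.11 SE; adjusted p = 0.927, edgeR). The other 6 (Atp6v1d, Atp6v1e1, Atp6v1f, Atp6v1h, Atp6v0b and Atp6v0e) had log2 fold changes of -0.04 to 0.11. Atp6v0e2, a second form of the small e subunit, was at 43.7 to 57.3 CPM in Hes1 cKO and 50.8 to 61.0 CPM in control (log2 fold change -0.13 ± 0.12 SE).

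Of the accessory proteins, Atp6ap1, which takes part in assembling V0, was at 204, 202 and 208 CPM in the mutants, beside 187, 194, 189 and 177 CPM in the controls. Every Hes1 cKO library was higher, by a small margin: the log2 fold change was 0.13 (± 0.07 SE; adjusted p = 0.927, edgeR). Atp6ap2, the (pro)renin receptor, was at 133, 148 and 152 CPM against 102, 133, 131 and 123 CPM, a log2 fold change of 0.24 (± 0.11 SE; unadjusted p = 0.0511, adjusted p = 0.841, edgeR). Its groups met at 133 CPM, in Hes1 cKO 1 and control 2. Tmem9 did not differ beyond its spread (log2 fold change -0.11 ± 0.11 SE). The annotated exons of Rnasek share 599 of 885 bp with a read-through gene on the same strand, Gm21988. How reads there were counted is not known, so the level of Rnasek is uncertain.

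Vma21, Tmem199 and Ccdc115 help to build V0 in the endoplasmic reticulum, and none of them was called. Tmem199 was at 17.4 to 20.4 CPM in Hes1 cKO and 16.4 to 19.2 CPM in control, and Ccdc115 at 19.5 to 20.7 CPM and 19.1 to 21.3 CPM. Vma21 varied within both groups alike, from 28.1 to 46.0 CPM and from 27.1 to 45.1 CPM. The log2 fold changes of these 3 were -0.02 to 0.04. The rabconnectin-3 or RAVE proteins put V1 back onto V0. Dmxl1 was at 119 to 142 CPM in Hes1 cKO and 102 to 125 CPM in control, with a log2 fold change of 0.18 (± 0.10 SE; adjusted p = 0.934, edgeR). Dmxl2, Wdr7 and Rogdi had log2 fold changes of -0.06 to 0.06, and all 4 overlapped between the groups.

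Counted by ranges alone, 6 of the 31 tested members had every Hes1 cKO library above every control and none had every one below; over all tested genes these shares were 3.71% and 3.29%. The 6 were the 4 called isoforms, Atp6v0c and Atp6ap1.

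The libraries with high and with low Xist were also read apart, since this split could carry a difference. Among the low-Xist libraries (Hes1 cKO 1 and 2, control 1 and 2) the difference of mean log2(CPM + 1) was 1.53 for Atp6v1c2, 1.39 for Atp6v0d2, 1.12 for Atp6v1g3 and 0.85 for Atp6v1b1. Among the high-Xist libraries (Hes1 cKO 3, control 3 and 4) it was 1.16, 1.12, 0.94 and 0.65 for the same genes in that order. All 4 thus had the same direction in both. For Atp6v0c it was 0.36 and 0.78, and for Atp6v0a4 0.09 and 0.26. Whether these values differ between the 2 sets of libraries was not tested.

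Genes that work with the pump were read from the same fit. These lists, and those of the next paragraph, were chosen with earlier results of these data known. Their counts of called genes are therefore not independent support. Of 13 acid-base genes of intercalated cells, 7 were called higher and none lower by edgeR, where 0.339% of all genes were called. The 7 were Foxi1, Hmx2, Slc4a9, Slc26a4, Car12, Kit and Insrr. The median was 0.85 on the log2 scale, with 10 above 0 and 3 below (Rhbg -0.47 ± 0.28 SE, Rhcg -0.18 ± 0.15 SE and Car2). Of the 13, 7 are also among the type A and type B markers above. Foxi1, the transcription factor needed to express pump subunits in these cells, was at 134, 118 and 108 CPM in the mutants, beside 26.5, 39.9, 32.9 and 31.7 CPM in the controls (log2 fold change 1.87 ± 0.13 SE; adjusted p = 6.3e-04, edgeR). Car12, a membrane carbonic anhydrase, was at 729, 727 and 706 CPM against 366, 437, 382 and 411 CPM (log2 fold change 0.85 ± 0.09 SE; adjusted p = 0.00357, edgeR). The values of both were apart between the groups. Car2, the cytosolic carbonic anhydrase, had a log2 fold change of -0.17 (± 0.11 SE) and was not called.

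Proteins with a TLDc domain bind the V-ATPase, and 1 of the 5 listed was called, where 0.339% of all genes were. Tldc2 was at 53.5, 36.0 and 36.8 CPM in the mutants, beside 6.83, 7.25, 8.89 and 9.88 CPM in the controls, well apart (log2 fold change 2.36 ± 0.18 SE; adjusted p = 8.0e-04, edgeR). That is a larger fold change than any member of the pump showed. Ncoa7, Oxr1, Meak7 and Tbc1d24 were not called, with Tbc1d24 at 0.52 (± 0.15 SE; unadjusted p = 0.00686, adjusted p = 0.522, edgeR). No gene was called by edgeR among the 2 tested V-ATPase genes outside the list (Tcirg1, the a3 isoform, and Tmem9b), the 6 genes of lysosomal and endosomal chloride exchange (Clcn3, Clcn4, Clcn5, Clcn6, Clcn7, Ostm1) or the 10 of Ragulator and the Rag GTPases, which bind the pump on lysosomes. Their median log2 fold changes were -0.08, 0.06 and -0.05, and none had an unadjusted p under 0.05, where 5.95% of all genes did. With so few genes in these lists, having none called does not set them apart from other genes.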

How the data were processed

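The authors deposited 2 tables of read counts per gene, whole numbers with no normalization. FastQC, STAR, DESeq2 and the builds mm10 and GRCm38 are named, per the submitters' processing notes, without their roles; not given in the sources used here are the counting program, strand setting and annotation. Columns named MT and WT in the first table (3 and 4 libraries) were used. The series text gives 9 Hes1 cKO and 7 control samples and the titles 7 and 9; the column names were followed. The 9 per-sample columns of the second table name no genotype and were not used.

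With edgeR 4.0.16, filterByExpr (minimum count 10) retained 15615 genes, which were scaled by TMM and compared by edgeR's quasi-likelihood test without covariates, with Benjamini-Hochberg adjustment over all of them and a threshold of 0.05. SEs come from the F statistic. The test was also run on simulated counts, as a check of the code and not of the calls reported here. Of the 28971 genes, 4690 had no symbol and took 0.364% to 0.508% of counts; all counted toward library size. Pairs of libraries within a group had a chi-square of 11.8 to 41.0 for each degree of freedom, more than sampling noise gives. Gene positions and union exon lengths are GENCODE M21 (GRCm38), which may not be the annotation counted, and overlapping or antisense genes can share reads.

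Members and lists were chosen with earlier results of these data known. By rule, the 5 intercalated-cell isoforms, their 6 ubiquitous counterparts and any other member called or at an unadjusted p under 0.05 were given per library, up to 3 others per role were named, and called genes of the further lists were named. Values per library for Atp6v1a, Atp6ap1 and Atp6ap2, the ranges of Slc4a1, and the names Car2, Rhbg, Rhcg, Tbc1d24, Tcirg1 and Tmem9b, were added after they were seen. Alternatives were DESeq2 (version 1.42.0) size factors and Wald test, limma-voom (3.58.1), total counts, 2 other filters, an Xist covariate, other pseudocounts, and leaving out each library; values within high-Xist and low-Xist libraries, and the a4 share with a3 in the sum, were added after the data were seen.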

Additional observations from a re-analysis of the deposited data

Results flagged for a closer look

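A control library stood apart from the other 3 in 8 of 54 sets of control values tested, by Dixon's gap ratio, the gap to the nearest library over the whole range at its 95% limit for 4 samples. Chance flags about 1 in 20 such sets, and the 8 share genes and libraries, so they are not independent. In 7 of the 8 the library apart was control 1, on the side away from the Hes1 cKO libraries. Atp6v1b1 was low there (108 CPM beside 146 to 147 CPM, gap ratio 0.959), and Atp6v1g3 was low (39.9 CPM beside 54.0 to 56.9 CPM, 0.832). The log2 ratio of Atp6v1b1 to Atp6v1b2 was -1.79 beside -1.38 to -1.33 (0.901), that of Atp6v0d2 to Atp6v0d1 was -2.31 beside -1.65 to -1.55 (0.865), and that of Atp6v0a4 to Atp6v0d2 was 4.24 beside 3.47 to 3.55 (0.899). The share of B1 in the B subunit's RNA was 25.8% beside 31.7% to 32.3% (0.896), and the share of d2 in the d subunit's RNA was 11.4% beside 17.1% to 18.2% (0.844). The log2 fold changes without control 1 were 0.64 for Atp6v1b1 and 1.11 for Atp6v0d2, and both genes were called by edgeR (adjusted p = 0.0108 and 9.2e-04).

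The remaining set was that of Atp6v1a, where control 2 was high (804 CPM beside 660.2 to 665 CPM, gap ratio 0.967).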

How the results depend on the processing

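Over all genes, 53 calls became 130 by the DESeq2 Wald test and 102 with no low-count filter, and 25 (without Hes1 cKO 2) to 47 (without control 2) with single libraries left out, with 27 without Hes1 cKO 1. The members called numbered 4 under each of the 7 other settings, and 2 to 4 with single libraries left out. Without Hes1 cKO 1 or Hes1 cKO 2 they were Atp6v1c2 and Atp6v1g3, which were called in all 14 alternatives. Atp6v0d2 was called in 12 of the 14 and Atp6v1b1 in 8. The cause of these losses was not tested. The median over the intercalated-cell isoforms stayed between 0.92 and 1.07.

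Members that were not called and lay near 0 changed sign. The log2 fold change of Atp6v1g2 was 0.016 scaled by total counts and 0.00066 by limma-voom, that of Wdr7 was 0.011 by total counts and 0.00074 with an Xist covariate, and that of Vma21 was 0.020 with that covariate. With single libraries left out it ranged from -0.029 to 0.13 for Atp6v0a1, -0.083 to 0.064 for Atp6v0a2, -0.084 to 0.013 for Atp6v1f, -0.064 to 0.028 for Atp6v0e, -0.081 to 0.067 for Atp6v1g2, -0.18 to 0.15 for Vma21, -0.037 to 0.084 for Tmem199, -0.0029 to 0.052 for Ccdc115, -0.051 to 0.14 for Dmxl2 and -0.038 to 0.024 for Wdr7.

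No paired analysis was possible because the columns used carry no replicate number of the titles.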
